A study of Mus musculus with 2 samples.

Results

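Glycine receptors are the chloride channels through which glycine inhibits neurons, and the 7 genes described here encode their subunits, the transporters that move glycine and the scaffold that holds the receptors at synapses. They are Glra1, Glra2 and Glra3 (alpha subunits), Glrb (the beta subunit), Gphn (gephyrin), Slc6a9 (the transporter GlyT1) and Slc6a5 (the transporter GlyT2). They were chosen by gene symbol, by a rule that used no measured value, though with earlier results of these data known. All 7 were found among the 43346 Ensembl genes of the gene tables, and 28 transcripts belonged to them in the transcript tables. RNA with a poly(A) tail was sequenced from brain tissue. Its donor was 1 male mouse of strain C57BL/6J, an adult aged 10 weeks. The RNA, extracted with a kit meant for lipid tissue, went into 2 libraries, technical replicates 1 and 2 of the same biological replicate. C57BL/6J is an inbred laboratory strain, and the labels name no treatment, no genotype change and no part of the brain. Replicate 2 was made in a later year than the study that first used replicate 1, so the order of the libraries is also an order in time.

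As background, a glycine receptor is a ring of subunits in which alpha subunits carry most of the glycine binding site and the beta subunit binds gephyrin. Glycine is the main inhibitory transmitter of spinal cord and brainstem, and alpha 2 and alpha 3 subunits are also made in the forebrain. GlyT1, mostly on astrocytes, clears glycine from the synapse and sets its level around NMDA receptors, while GlyT2, on glycinergic neurons, refills their terminals.

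Replicate 1 held 18302506 counts and replicate 2 held 17828479. The totals were close, but mitochondrial genes and their nuclear copies took 63.1% of the TPM in replicate 1 and 28.1% in replicate 2, so the depth left for other genes was not equal. Levels differed widely across genes. Over the 14229 genes with a mean TPM (a transcript level corrected for length whose sum over all rows is equal in both libraries) of at least 1, the median log2 ratio of TPM + 1, replicate 2 over replicate 1, was 0.88. Over 13063 of these genes, that ratio had a Spearman rho of 0.74 with the GC content of the coding stretch, a correlation across genes that share the same pair of libraries. Counts were compared by an exact binomial test, two-sided, after TMM scaling of the library sizes, a method that centres the bulk of genes. A gene was called at a Benjamini-Hochberg adjusted p under 0.05 over all 16320 genes tested and at least 2-fold. This test compares 2 libraries and not conditions, and there is no replicate check. Every mean ± SD is over these 2 technical replicates of 1 mouse. Scaling by library totals instead moved every log2 count ratio up by 0.61, and directions that turn with the scaling are named with each gene.

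The tissue carried the marker genes of brain. The 5 neuronal markers summed to 4607 TPM in replicate 1 and 4179 in replicate 2, and the 7 astrocyte markers to 786.6 and 926.1. The 6 oligodendrocyte markers summed to 1508 and 2131, and the 8 forebrain markers to 342.4 and 598.2. Of the forebrain sum, Ppp1r1b alone was at 11.1 and 322.4 TPM, and the median log2 TPM ratio of the 8 was 0.08. The glycinergic and brainstem list summed to 14.6 and 70.9 TPM, but most of its genes were near 0. Of its 17 genes, 12 had at most 3 counts in both libraries and 10 were at 0 in both, among them 9 of the 10 Hox genes, which mark hindbrain and spinal cord. Where a library is at 0, up to 3 counts could have been missed, or 1.64e-05% of all counts in replicate 1 and 1.68e-05% in replicate 2. Tph2, the serotonin-making enzyme of brainstem raphe neurons, was nonetheless present at 12.1 and 9.83 TPM. Slc32a1, which loads both glycine and GABA into vesicles, was at 2.05 and 60.1 TPM, most of the sum in replicate 2. The 10 cerebellar genes summed to 122.9 and 90.2 TPM. Calb1 made up most of that, at 96.1 and 52.5 TPM, and Zic1 was at 12.9 and 15.7, Cbln1 at 4.50 and 12.5 and Neurod1 at 7.74 and 6.67, while the Purkinje cell gene Pcp2 had 0 and 1 count and the granule cell gene Gabra6 had 11 and 2. The 4 motor neuron markers summed to 3.38 and 5.87 TPM and the 4 retina markers to 0.21 and 1.18. The 4 choroid plexus markers summed to 77.0 and 874.7 TPM, and nearly all of this was Ttr, the transthyretin gene, at 71.99 and 855.8. Folr1 and Aqp1 were also higher in replicate 2, at 0 and 10.5 TPM and at 0.11 and 2.27, while Kl was at 4.92 and 6.15. In bulk tissue, fewer cells of a type and less RNA per cell cannot be told apart.

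Glrb was by far the most abundant of the 7 genes and Slc6a5 the least. In replicate 1 the order of TPM ran from Glrb through Gphn, Glra2, Glra3, Slc6a9 and Glra1 to Slc6a5. In replicate 2 Slc6a9 stood just below Gphn, and the order of the other genes was the same. Each library has a deposited interval around its posterior mean TPM, with a level that the sources used here do not give. The interval belongs to the posterior mean, so the TPM itself can lie outside it, as it does for Glrb and Gphn in both libraries, where the TPM is the higher value. In replicate 2 the intervals of the neighbours Gphn (33.6 to 37.5) and Slc6a9 (31.8 to 41.5) overlapped. In replicate 1 those of Glra3 (3.44 to 5.03) and Slc6a9 (1.70 to 5.54) overlapped. The intervals of the other neighbours in each order did not overlap. The posterior SD of the gene count was 0 for all 7 genes in both libraries, so the tables assign none of their counts between genes.

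**Figure D1:**
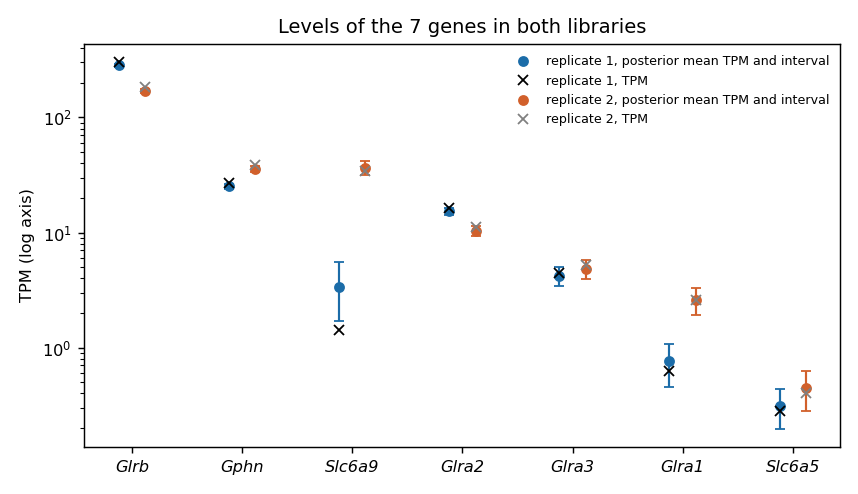
Levels of the 7 genes in TPM on a log axis, by library. Circles and bars are the deposited posterior mean TPM and its interval, and crosses are the deposited TPM. Glrb stands highest at 300.9 and 182.3 TPM, Slc6a5 lowest at 0.28 and 0.40, and Slc6a9 is the gene whose libraries lie farthest apart, at 1.42 and 34.3.

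With TMM scaling, 1 of the 7 genes, Slc6a9, was called higher in replicate 2, where 34.5% of all genes tested were called higher. Glra2 and Glrb were called lower, where 23.8% of all genes were. With library totals, Slc6a9 and Glra1 were called higher against 43.4% of all genes, and none of the 7 was called lower against 7.83%. With 7 genes these counts were not tested against the shares of all genes called, and nothing is read from them about the family.

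The alpha 2 gene made up most of the alpha subunit RNA. Glra2 (ENSMUSG00000018589.8, chrX:165129017-165327393, minus strand, GRCm38) encodes the subunit that dominates in the developing brain. Replicate 1 gave 692 counts and replicate 2 gave 359, and its TPM was 16.2 and 11.2 (13.7 ± 3.57, SD, n = 2). Replicate 1 was the higher library, and its deposited interval of 14.2 to 16.4 lay above that of replicate 2, 9.30 to 11.4. The count fell by 1.52 on the log2 scale with TMM (exact binomial test, adjusted p = 3.43e-62), and the ratio of CPM (counts as a share of the library total) was 0.533 (exact Clopper-Pearson interval at 95%, 0.468 to 0.606, counting error only). With library totals the log2 difference was -0.91, short of 2-fold. The coding stretch of Glra2 is 45.0% GC, and over all genes of 40 to 45% coding GC the median log2 TPM ratio was -0.51, beside -0.50 for Glra2. The next class, 45 to 50%, had a median of 0.11. After a trend on transcript GC was removed, its log2 count ratio was -0.03, and after one on coding GC -0.32, and neither was called.

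Glra3 (ENSMUSG00000038257.8, chr8:55940460-56130070, plus strand), the alpha 3 subunit gene known for pain-related inhibition in the spinal cord, was the second alpha gene. It had 109 and 101 counts, and its TPM was 4.43 and 5.17 (4.80 ± 0.523, SD, n = 2). The libraries were close, with overlapping intervals of 3.44 to 5.03 and 3.91 to 5.82. Its ratio of CPM was 0.951 (0.718 to 1.26). The log2 count ratio was -0.68 with TMM (exact binomial test, adjusted p = 0.00111, under 2-fold and so not called) and -0.07 with library totals, and the log2 TPM ratio was 0.18. With TPM rescaled without mitochondrial genes and copies that ratio turned to -0.67.

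Glra1 (ENSMUSG00000000263.11, chr11:55514238-55608198, minus strand) encodes the adult subunit of spinal cord and brainstem, whose mutations cause startle disease. It had 20 and 58 counts, and its TPM was 0.63 and 2.57 (1.60 ± 1.37, SD, n = 2). Replicate 2 was the higher library, and the intervals of 0.453 to 1.08 and 1.92 to 3.27 did not overlap. The ratio of CPM was 2.98 (1.76 to 5.23). With TMM the log2 count ratio was 0.94 (exact binomial test, adjusted p = 0.0132), just under 2-fold and not called, and with library totals it was 1.55 (adjusted p = 1.79e-05) and called. The coding stretch of its transcripts is 52.7% GC, and genes of 50 to 55% had a median log2 TPM ratio of 1.11, beside 1.13 for Glra1. After a trend on transcript GC was removed the log2 count ratio turned to -0.16, and after one on coding GC it was 0.45, and neither was called.

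Together the alpha genes stood at 21.3 TPM in replicate 1 and 18.9 in replicate 2. Glra2 held 76.2% and 59.1% of that sum, Glra3 20.8% and 27.3%, and Glra1 2.96% and 13.6%. The order of the 3 alpha genes was the same in both libraries, while the Glra1 share rested on few counts in replicate 1. Glra4, another alpha gene that is not among the 7, had 0 and 2 counts.

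Coding stretches known to be used alternatively in Glra1 and Glra3 could be looked for in the transcript models, and both lie in the loop between the last membrane spans. The sequences are printed in capitals with their coding neighbours in lower case, read from the GENCODE M21 transcripts on GRCm38. The first, at chr11:55515104-55515127 on the minus strand, is the 24-base start of exon 9 that only Glra1-201 holds. The second, at chr8:56112830-56112874 on the plus strand, is the 45-base exon 9 of 10 in Glra3-201.
Glra1-201: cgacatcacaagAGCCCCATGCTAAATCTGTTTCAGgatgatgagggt
Glra3-201: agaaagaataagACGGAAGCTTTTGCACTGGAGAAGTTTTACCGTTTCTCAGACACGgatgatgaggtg
The Glra1 insert was not assigned reads and the Glra3 exon belonged to the leading transcript. Glra1-201 had 0 counts in both libraries, and Glra1-202, which lacks the insert, held 98.5% and 79.7% of the gene. Glra1-203, which lacks exon 2, held the other 1.53% and 20.3%. These shares are weakly determined: by the posterior mean, Glra1-202 held 55.1% and 64.4% and Glra1-201 held 22.2% and 11.0%, and the intervals of Glra1-203 overlapped between libraries. Glra3-201 held 98.3% and 92.9% of Glra3, and the only other Glra3 model is noncoding, so a form without the exon could not be counted. Its deposited length of 1867 bases is shorter than the 6508 bases of the later model. Glra2 has 1 model, so its alternative exon 3 could not be separated.

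Glrb (ENSMUSG00000028020.12, chr3:80843599-80913660, minus strand) encodes the beta subunit that anchors the receptor to gephyrin. It had 10885 and 5386 counts, and its TPM was 300.9 and 182.3 (241.6 ± 83.9, SD, n = 2), above 99.1% of genes by mean TPM. Replicate 1 was the higher library, with an interval of 274 to 291 against 164 to 175. The ratio of CPM was 0.508 (0.492 to 0.525). The count fell by 1.59 on the log2 scale with TMM and was called, with an adjusted p from the exact binomial test too small for the precision used. With library totals the log2 difference was -0.98, just short of 2-fold. Its coding stretch is 44.4% GC, in the class whose median log2 TPM ratio was -0.51, beside -0.72 for Glrb, which lies at the lower edge of that class (lower quartile -0.71). The log2 count ratio was -0.05 after a trend on transcript GC was removed and -0.31 after one on coding GC, and neither was called. Glrb RNA exceeded the sum of the alpha subunits 14.1-fold in replicate 1 and 9.64-fold in replicate 2.

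The leading Glrb transcript was not the same in the libraries. Glrb-201, which codes for the full subunit over 1488 bases, and Glrb-204, annotated as a target of nonsense-mediated decay (the pathway that removes RNAs with an early stop), differ in 2 places. One is the first 46 bases of Glrb-201, at chr3:80913615-80913660 in the 5′ UTR, which are 82.6% GC. The other is 4 coding bases at the start of exon 3 of 10, at chr3:80879729-80879732, shown in capitals with 18 bases on each side. The 4 bases are not a multiple of 3, and the annotated coding stretch of Glrb-204 is 174 bases.
Glrb-201: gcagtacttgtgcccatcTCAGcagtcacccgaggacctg
Glrb-204: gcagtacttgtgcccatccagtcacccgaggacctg
Glrb-204 led in replicate 1 and Glrb-201 in replicate 2. Glrb-201 held 16.5% of Glrb in replicate 1 and 88.1% in replicate 2, with a TPM of 49.5 and 160.6 and intervals of 30.8 to 96.1 and 140.1 to 154.4. Glrb-204 held 68.3% and 6.67%, with a TPM of 205.4 and 12.2 and intervals of 144.6 to 209.7 and 6.13 to 17.9. Neither pair of intervals overlapped. The estimated counts of Glrb-204 were 8254 and 368, with a posterior SD of 706.9 and 99.3 counts. Glrb-202, a coding model that stops after exon 8, held 14.9% and 2.63%, with intervals of 31.9 to 50.4 and 1.65 to 8.54.

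On the deposited TPM scale the gene and its coding models differed in opposite directions. Glrb as a whole was lower in replicate 2, while the TPM of its coding models was 94.9 in replicate 1 and 165.4 in replicate 2. With TPM rescaled without mitochondrial genes and copies this no longer held, since the coding models were at 257.1 and 230.0. Glrb-201 was higher in replicate 2 on that scale too, at 134.1 and 223.3. The TPM of its nonsense-mediated decay models was 205.8 and 16.6, or 68.4% and 9.08% of the gene. Only reads over the 4-base site or the first 46 bases tell Glrb-201 from Glrb-204, so the split rests on a small part of the gene's reads. The part of the GC-rich first 46 bases in it was not tested.

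Gphn (ENSMUSG00000047454.7, chr12:78226379-78684772, plus strand) encodes gephyrin, which forms the lattice under inhibitory synapses and also makes the molybdenum cofactor. It had 1193 and 1298 counts, and its TPM was 26.7 and 38.6 (32.6 ± 8.37, SD, n = 2). The intervals of 23.8 to 26.6 and 33.6 to 37.5 did not overlap, with replicate 2 the higher. The ratio of CPM was 1.12 (1.03 to 1.21). The direction depended on the scale. The log2 count ratio was -0.45 with TMM (exact binomial test, adjusted p = 1.98e-14, under 2-fold), 0.16 with library totals and -0.43 for TPM rescaled without mitochondrial genes, and Gphn was called with neither TMM nor library totals. Glrb TPM was 11.3-fold that of Gphn in replicate 1 and 4.73-fold in replicate 2.

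Gephyrin RNA is assembled with alternative coding exons in the linker between its ends, and the GENCODE M21 models of Gphn differ in them. Gphn-201 is 3570 bases long there and 3289 as deposited, and Gphn-202 is 3300 and 3298. Whether the deposited models hold the same exons was not checked. Gphn-201 holds exons 9 and 10 of 57 and 42 bases, at chr12:78522898-78522954 and chr12:78532657-78532698. Gphn-202 holds instead exon 8 of 108 bases, at chr12:78493950-78494057. Each exon is shown in capitals between 10 lower-case bases of the transcript's neighbouring exons.
Gphn 108-base exon: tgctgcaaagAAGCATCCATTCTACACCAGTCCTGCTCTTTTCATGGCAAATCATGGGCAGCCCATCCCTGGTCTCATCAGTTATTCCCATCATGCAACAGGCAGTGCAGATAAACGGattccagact
Gphn 57-base exon: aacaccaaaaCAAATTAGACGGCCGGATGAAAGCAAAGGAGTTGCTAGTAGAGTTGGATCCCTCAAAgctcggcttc
Gphn 42-base exon: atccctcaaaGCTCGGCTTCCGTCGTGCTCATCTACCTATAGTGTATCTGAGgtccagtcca
All 3 exons are a multiple of 3 bases long. The TPM of Gphn-201 was 20.96 and 20.26, with overlapping intervals of 17.0 to 22.4 and 15.5 to 21.8. Gphn-202 was at 5.75 and 18.3, with intervals of 3.08 to 7.93 and 13.9 to 20.1 that did not overlap. The share of the model with the 108-base exon was 21.5% and 47.4%. With TPM rescaled without mitochondrial genes and copies, Gphn-202 was at 15.6 and 25.4 and Gphn-201 at 56.8 and 28.2. The likeness of Gphn-201 between libraries thus depends on the scale. The rescaling multiplies all TPM of a library by the same factor, so it cannot change the shares within the gene. The exons are 49.1% GC for the 108-base exon, 45.6% for the 57-base and 52.4% for the 42-base exon. A transcript that combines or lacks all 3 exons has no model in the tables.

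**Figure D2:**
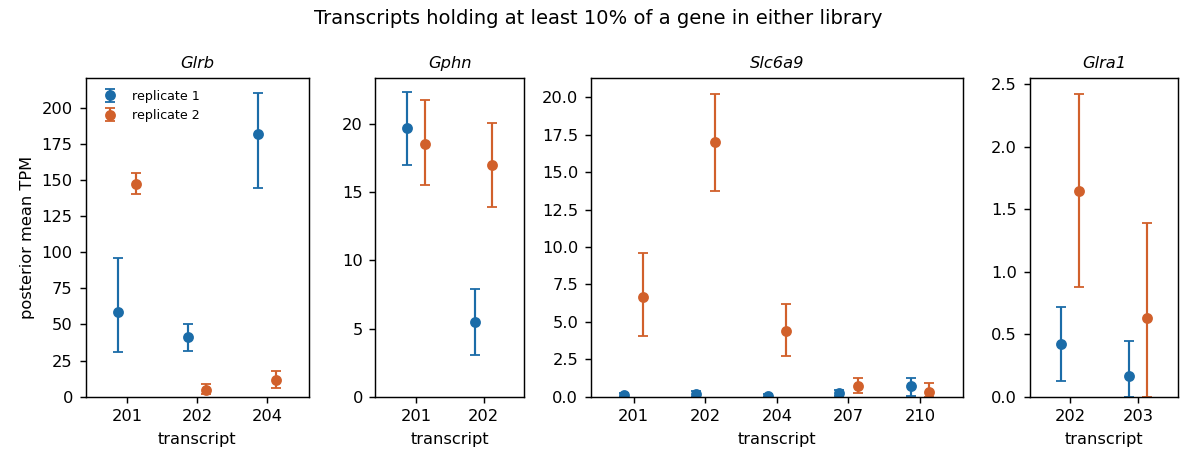
Posterior mean TPM and deposited interval of each transcript of Glrb, Gphn, Slc6a9 and Glra1 that holds at least 10% of its gene in either library. Each panel has its own linear axis from 0, blue is replicate 1 and orange is replicate 2. Glrb-204 and Glrb-201 exchange places between libraries, and on this scale Gphn-202 differs while the intervals of Gphn-201 overlap.

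Slc6a9 (ENSMUSG00000028542.13, chr4:117834506-117875198, plus strand), the GlyT1 gene, differed most between libraries. Replicate 1 gave 41 counts and replicate 2 gave 952, and its TPM was 1.42 and 34.3 (17.9 ± 23.2, SD, n = 2). Replicate 2 was far above replicate 1, with intervals of 1.70 to 5.54 and 31.8 to 41.5. In replicate 1 the posterior mean TPM of 3.38 was above the TPM of 1.42, which lies outside its interval. The ratio of CPM was 23.8 (17.4 to 33.4). The count was 3.95 higher on the log2 scale with TMM (exact binomial test, adjusted p = 2.10e-155) and 4.56 higher with library totals. Its coding stretch is 56.2% GC, and genes of 55 to 60% had a median log2 TPM ratio of 2.36 and an upper quartile of 3.48, beside 3.87 for Slc6a9. After a trend on transcript GC was removed, its log2 count ratio was 0.79 and it was not called, and after one on coding GC it was 2.10 and called.

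GlyT1 is made from alternative starts, and the coding stretches they open differ. The first coding bases from the upstream start lie at chr4:117843106-117843135, and those from the downstream start at chr4:117849422-117849466. They are shown in capitals, with 12 bases of the exon both forms share in lower case.
Slc6a9-202: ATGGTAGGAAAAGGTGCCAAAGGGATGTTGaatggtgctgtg
Slc6a9-204: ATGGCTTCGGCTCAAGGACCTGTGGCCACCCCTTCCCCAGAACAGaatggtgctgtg
The upstream start held most of the RNA in both libraries. The 6 transcripts from it summed to 1.41 TPM in replicate 1 and 27.1 in replicate 2, which is 100% and 79.1% of the gene. The 3 transcripts from the downstream start summed to 0 and 5.06 TPM, from 0 and 55.6 counts. With 41 counts in replicate 1, a downstream share of the size seen in replicate 2, 14.8%, was assigned no reads, and by the posterior mean it was 9.61% and 14.4%. Slc6a9-202 was the leading transcript in replicate 2, with 54.8%, followed by Slc6a9-201 with 21.9% and Slc6a9-204 with 14.2%. In replicate 1, Slc6a9-210 held 72.0%, from 24.8 counts with a posterior SD of 6.54, Slc6a9-202 held 16.5% and Slc6a9-207, annotated for nonsense-mediated decay, 11.5%.

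Other genes lie on the opposite strand of Slc6a9. Ccdc24 shares 1429 of its 5141 exon bases and had 1.61 and 9.22 counts, and B4galt2 shares 46 and had 11.4 and 1114 counts. The sources used here do not say whether strand was used in counting. The posterior SD of 0 for the Slc6a9 count shows that the tables divide none of its counts with these genes.

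Slc6a5 (ENSMUSG00000039728.10, chr7:49910146-49963856, plus strand), the GlyT2 gene and the defining marker of glycinergic neurons, was near the limit of measurement. It had 28 and 30 counts, and its TPM was 0.28 and 0.40 (0.34 ± 0.0849, SD, n = 2). The intervals of 0.198 to 0.437 and 0.281 to 0.632 overlapped, and the ratio of CPM was 1.10 (0.635 to 1.91). The log2 count ratio was -0.47 with TMM (exact binomial test, adjusted p = 0.295) and 0.14 with library totals, and no difference between libraries was detectable at this depth on either scale. Slc6a5-201 held all counts in both libraries. At 54.1% coding GC its log2 TPM ratio of 0.13 was below the lower quartile of its class, 0.41, and after a trend on coding GC, which was added after seeing the data, its log2 count ratio was -1.45 (exact binomial test, adjusted p = 0.000559) and called. After the trend on transcript GC it was -0.16 and not called. The log2 TPM ratio was -0.18 with TPM rescaled without mitochondrial genes and copies. Slc6a9 TPM was 5.07-fold that of Slc6a5 in replicate 1 and 85.7-fold in replicate 2, so which library is read decides how far GlyT1 exceeds GlyT2.

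**Figure D3:**
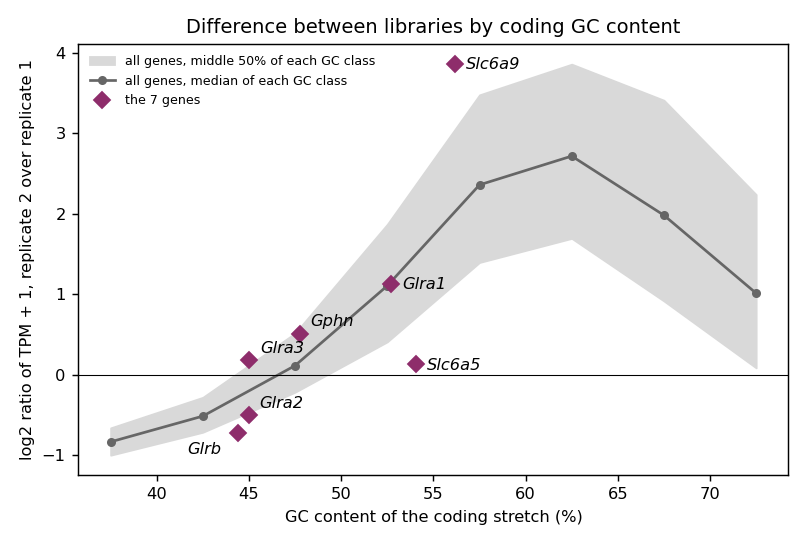
Log2 ratio of TPM + 1 between libraries against the GC content of the coding stretch, in percent. The grey line and band are the median and the middle 50% of all genes in each 5-point GC class, and diamonds are the 7 genes. Glra1, at 1.13, lies near its class median, Slc6a9, at 3.87, lies above the upper quartile of its class, and Slc6a5, at 0.13, lies below the lower quartile of its class.

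The GABA-A receptor genes, whose receptors share synapses and gephyrin with glycine receptors, were compared as a neighbouring family. The 13 subunit genes summed to 1107 TPM in replicate 1 and 853.9 in replicate 2. Of these, 10 were called lower and 1 higher with TMM (23.8% and 34.5% of all genes), and 4 lower and 1 higher with library totals (7.83% and 43.4% of all genes). Their median log2 TPM ratio was -0.38, against 0.88 over all genes. Gabra4, an alpha subunit gene, stood at 113.8 and 70.7 TPM, below Glrb in both libraries. Gabrg1 had the lowest log2 TPM ratio of those called, -0.83. Gabrd, the delta subunit of receptors outside synapses, went the other way, from 0.80 to 66.4 TPM and 29 to 1273 counts. Coding GC was 41.3% for Gabrg1 and 56.1% for Gabrd, the same order as in Glrb and Slc6a9.

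**Figure D4:**
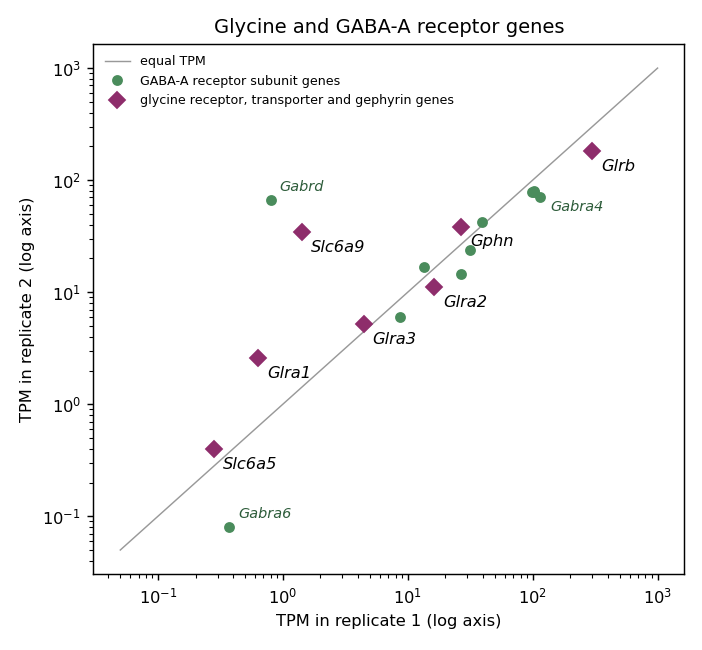
TPM in replicate 2 against TPM in replicate 1, both on log axes, for the 7 genes (diamonds) and 11 of the 13 GABA-A receptor subunit genes (circles). The line marks equal TPM. Glrb and Gabra4 lie below the line, and Slc6a9 and Gabrd lie far above it.

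Genes for gephyrin's partners were well expressed. Of 19 listed, Nlgn4l and Insyn2a were not matched, and of the 17 measured 7 were called higher and 4 lower with TMM, near the 34.5% and 23.8% of all genes, and 8 higher and 0 lower with library totals, against 43.4% and 7.83%. Their median log2 TPM ratio was 1.34, against 0.88 over all genes. Among the highest by mean TPM were Dynll1 and Dynll2, the dynein light chains that bind gephyrin. Dynll1 was at 739.4 and 548.2 TPM, Dynll2 at 181.6 and 435.6, and Pfn2, a profilin that links gephyrin to actin, at 647.2 and 542.3. Among the called genes, Insyn1, an inhibitory synapse protein, had the highest ratio, with 3 counts in replicate 1 and 2066 in replicate 2 at 60.5% coding GC. Nlgn1, a neuroligin of excitatory synapses, had the lowest, at 35.4 and 26.7 TPM.

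The 8 genes of molybdenum cofactor synthesis and use, gephyrin's other role, summed to 78.3 and 133.4 TPM. With both scalings 6 were called higher and 0 lower, where 34.5% of all genes were called higher with TMM and 43.4% with library totals. Their median log2 TPM ratio was 1.00, close to the 0.88 of all genes. Mocs2, which acts just before gephyrin, was at 44.9 and 74.0 TPM, Nfs1, a cysteine desulfurase, at 27.8 and 34.3, and Suox, the sulfite oxidase that needs the cofactor, at 1.96 and 9.98.

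Genes that make or break down glycine all had counts in replicate 2, while Dao had 0 counts in replicate 1 and 16 in replicate 2. Of 11, 6 were called higher and 2 lower with TMM (34.5% and 23.8% of all genes) and 8 higher and 1 lower with library totals (43.4% and 7.83% of all genes). Their median log2 TPM ratio was 1.39, against 0.88. Components of the glycine cleavage system differed in opposite directions. Dld and Gcsh were called lower with TMM, at 160.2 and 98.9 TPM and at 65.3 and 61.2 TPM. Gldc and Amt were called higher in replicate 2 with both scalings, from 89 and 463 counts and from 122 and 415 counts. Phgdh, the first enzyme of serine synthesis and an astrocyte gene like Slc6a9, was at 2.97 and 75.7 TPM, from 20 and 1351 counts, and its coding GC was 57.6%. Psat1, the next enzyme, was at 47.1 and 108.9 TPM. Of the 7 astrocyte markers, 2 were called higher and 3 lower with TMM (34.5% and 23.8% of all genes). With library totals 2 were called higher and 0 lower (43.4% and 7.83% of all genes). Slc1a2 stood at 396.7 and 346.1 TPM and Aldh1l1 at 2.10 and 34.8. The part of astrocyte content in the Slc6a9 difference was not tested.

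Of 11 other carriers of glycine, 10 were tested, and 7 were called higher and 0 lower under both scalings, where 34.5% of all genes were called higher with TMM and 43.4% with library totals. Their median log2 TPM ratio was 2.58, against 0.88 over all genes. Slc6a17, a vesicle carrier of neutral amino acids, had the highest mean TPM, at 19.9 and 154.3, followed by Slc38a2 at 48.1 and 52.1 and Slc38a1 at 34.2 and 48.5. Slc38a3, an astrocyte carrier, had the highest log2 TPM ratio of those called, 4.83, and Slc38a5 the lowest, 1.65. Slc32a1, which loads both glycine and GABA into vesicles, was at 2.05 and 60.1 TPM from 77 and 1701 counts, with a coding GC of 61.5%. In both libraries Slc32a1 exceeded Slc6a5, the transporter of glycinergic terminals alone.

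The genes nearest to each of the 7 by log2(TPM + 1) in both libraries were found for the 6 with a mean TPM of at least 1. Over 2 libraries this likeness is of level only. Ppp3cb (302.7 and 183.8 TPM) and Paip2 (294.3 and 191.2) were nearest to Glrb, and Smarcad1 and Med23 to Glra2. Prpsap2 and Uap1 were nearest to Gphn, Ubald2 and Pcnx2 to Slc6a9, Pgm2 and 2810002D19Rik to Glra3, and 4732491K20Rik and Col23a1 to Glra1. Transcript GC was 40.8% for Glrb, beside 40.7% for Ppp3cb and 41.8% for Paip2. It was 41.3% for Glra2, beside 41.1% for Smarcad1 and 45.8% for Med23. For Gphn it was 47.3%, beside 45.6% for Prpsap2 and 47.6% for Uap1. Slc6a9 was at 56.9%, beside 59.7% for Ubald2 and 56.7% for Pcnx2. Glra1 was at 52.6%, beside 48.3% for 4732491K20Rik and 55.05% for Col23a1. Pgm2 was at 46.7% and 2810002D19Rik at 51.5%, and Glra3 had no value.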

How the data were processed

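Poly(A) RNA of 1 mouse brain sample was measured in 2 technical replicates, each with a gene table and a transcript table. Expected counts, estimates that need not be whole, were deposited by the authors per gene and transcript. TPM and FPKM were deposited by the authors on the same features. Transcript shares in percent of a gene's TPM were deposited by the authors. Interval bounds and posterior SDs (signal values in TPM or counts) stand beside posterior means, per the file headers. The listings deposited with them give the build as mm10 and the annotation as GENCODE M4, and the sources used here name no quantifier or aligner. Symbols, positions and sequences came from GENCODE M21, also on GRCm38, through identifiers stripped of their version. All 28 transcripts matched, 25 with the same length.

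Rounded expected counts of genes with at least 10 summed counts were tested (edgeR 4.0.16 for TMM, scipy 1.17.1 for the exact test), with 0.5 added to each count for folds. The p-values measure only read sampling in 2 libraries. Tested alternatives were library totals, DESeq2 1.42.0 size factors, no minimum count, posterior means, no fold minimum, FPKM, CPM, other pseudocounts, TPM without mitochondrial genes and a lowess trend on GC (fraction 0.2, statsmodels 0.14.6). Trends on coding GC and on later models of any length, and log2 TPM ratios without mitochondrial genes, were added after seeing the data. The procedure was tested on simulated counts drawn from gene proportions shared by both libraries, with a set of genes changed. The simulation was given no GC trend and no difference in mitochondrial share, so it cannot show how the test behaves with them.

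The genes, the 6 pathway lists and the 9 marker lists were chosen with earlier results of these data known. Named genes are all 7, the 3 of highest mean TPM and the called genes of extreme ratio in each list (of the marker lists, only those a result needs), 2 nearest genes, and transcripts with a share of at least 10% or an alternative coding exon. Marker genes with counts near 0, and Gldc and Amt, were named after their values were seen. Some genes that this rule would name are not reported here.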

Additional observations from a re-analysis of the deposited data

How the results depend on the processing

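The number of the 7 genes called was 3 with DESeq2 size factors, no minimum count and posterior mean counts, as in the TMM test. With library totals 2 were higher and 0 lower. Without the fold minimum 6 were called, 2 higher and 4 lower. A trend on transcript GC left 0 called, 0 higher and 0 lower, with no value for Glra3. With later models of any length 1 was called and 0 were lower, and with coding GC 1 was higher and 1 lower.

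Directions turned for these log2 count ratios. Glra1 was -0.16 with the transcript GC trend and -0.14 with models of any length. Glra3 was 1.36 with models of any length and 0.51 with coding GC. Gphn was 0.16 with library totals, 0.068 with the GC trend, 0.052 with models of any length and 0.25 with coding GC. Slc6a5 was 0.14 with library totals. The log2 TPM ratio of Glra3 was -0.11 on FPKM and -0.062 on CPM. With TPM rescaled without mitochondrial genes and copies, a setting added for these ratios after seeing the data, it was -0.67, that of Gphn -0.43 and that of Slc6a5 -0.18, and the median over the 7 genes turned from 0.18 to -0.43. The cause was not tested, except that totals shift every gene by 0.61.

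The median mean TPM over the 7 genes was 13.7, between 4.43 and 11.2 with 1 library left out, and 25.8 without mitochondrial genes. The median share of the leading transcript was 89.1%, and 65.2% by posterior means. Leaving out a library leaves no count comparison. Low counts limit Glra1, Slc6a5 and, in replicate 1, Slc6a9.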
